A study of Arabidopsis thaliana with 16 samples.

Results

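Camalexin, the main phytoalexin of Arabidopsis thaliana, is made from tryptophan through indole-3-acetaldoxime. The 5 genes described here encode cytochromes P450 of that route, and they were chosen by their gene identifiers as the route's core enzymes: CYP79B2 (AT4G39950), CYP79B3 (AT2G22330), CYP71A12 (AT2G30750), CYP71A13 (AT2G30770) and PAD3 (AT3G26830), 5 of the 32833 genes in the count table. All 5 were among the 22427 genes with enough counts to be tested. CYP79B2 and CYP79B3 convert tryptophan to indole-3-acetaldoxime, from which indole glucosinolates, camalexin and other indole compounds all derive. CYP71A13 and its close relative CYP71A12 turn the aldoxime into indole-3-acetonitrile, and PAD3 (CYP71B15) carries out the last steps to camalexin. In leaves the camalexin genes are best known as genes that are switched on by pathogens, whereas the CYP79B genes are also used for the glucosinolates that healthy seedlings hold.

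The study compared mutants of nucleoporins, proteins of the nuclear pore. RNA came from whole seedlings, 9 days old, that were grown on half-strength MS medium with 1% sucrose and were not treated. The 8 genotypes, with 2 libraries each, were wild type Col-0 (WT), the single mutants nup50c, nup82 and nup136, the double mutants nup50c nup82, nup50c nup136 and nup82 nup136, and the triple mutant nup50c nup82 nup136. No immune stimulus was part of any group. The labels name no alleles, and nothing in them shows that the replicates were grown apart, so p-values measure the spread between these libraries, which may be technical. Depth was 37923632 to 46194172 counts per library, and 3 counts corresponded to 0.0646 to 0.0798 CPM, the count of a gene scaled to library size.

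The mutated genes were checked first. NUP50C (AT4G11790) was at 42.0 ± 1.89 CPM (SD, n = 2) in WT and at 8.88 to 14.1 CPM in the 4 genotypes with nup50c, and NUP136 (AT3G10650) was at 47.9 ± 1.59 CPM in WT and at 19.4 to 28.6 CPM in the 4 genotypes with nup136; both fell in every genotype that carries the mutation. NUP82 (AT5G20200) was at 32.2 ± 3.86 CPM in WT and fell to 21.5 ± 0.164 CPM in nup82. It did not pass the test in the multiple mutants with nup82, where it was at 28.9 CPM (nup50c nup82), 27.5 CPM (nup82 nup136) and 37.1 CPM (nup50c nup82 nup136). Counts over a whole gene do not separate the transcript of a disrupted allele, so these 3 genotypes are called by their labels below, and the libraries labelled nup50c nup82 nup136 are called triple-labelled.

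The 5 genes form 2 pairs of relatives and 1 single gene, and their positions are given on TAIR10.1, where the count table places them at the same coordinates. CYP79B2 is at chr4:18525042-18527602 on the plus strand with 3 coding exons, and CYP79B3 is at chr2:9488413-9491404 on the plus strand with 2. CYP71A12 (chr2:13099486-13101371) and CYP71A13 (chr2:13109909-13111988) lie on the minus strand with 4 coding exons each and 8537 bases between them. PAD3 is at chr3:9887917-9889791 on the plus strand with 2 coding exons. Coding sequences of CYP79B2 and CYP79B3 were 80.8% identical over 1694 aligned bases, and those of CYP71A12 and CYP71A13 were 90.4% identical over 1494 bases.

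How well reads can tell CYP71A12 from CYP71A13 matters for every value of that pair, so a stretch of both coding sequences is shown (RefSeq, TAIR10.1, both on chromosome 2). It covers coding bases 669 to 728, and capitals mark the 15 positions at which they differ out of 144 along the whole coding sequence.
CYP71A12: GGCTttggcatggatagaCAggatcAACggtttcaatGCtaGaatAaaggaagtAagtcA
CYP71A13: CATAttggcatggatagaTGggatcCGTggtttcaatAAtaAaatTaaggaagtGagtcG
The longest identical run was 59 bases, at coding bases 592 to 650. Of 1345 windows of 150 bases along CYP71A12, 0 had an identical match in CYP71A13, and at 50 bases 10 of 1445 windows had one. The counting of reads with several alignments is not given in the sources used here, and the summed counts of the pair are therefore given beside the single values.

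CYP79B2 and CYP79B3 moved together between libraries of a genotype, and between genotypes they parted furthest in the triple-labelled libraries. The 250 bases before each annotated start are therefore shown (RefSeq, TAIR10.1, plus strand, chr4:18524792-18525041 and chr2:9488163-9488412). Capitals mark the longest run that both share, 22 bases that begin 77 bases before the CYP79B2 start and 151 bases before the CYP79B3 start.
CYP79B2: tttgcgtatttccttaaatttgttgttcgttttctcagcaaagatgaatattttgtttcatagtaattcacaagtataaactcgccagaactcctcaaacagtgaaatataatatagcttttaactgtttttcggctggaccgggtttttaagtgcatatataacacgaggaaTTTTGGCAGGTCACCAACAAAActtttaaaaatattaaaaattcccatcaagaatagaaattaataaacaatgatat
CYP79B3: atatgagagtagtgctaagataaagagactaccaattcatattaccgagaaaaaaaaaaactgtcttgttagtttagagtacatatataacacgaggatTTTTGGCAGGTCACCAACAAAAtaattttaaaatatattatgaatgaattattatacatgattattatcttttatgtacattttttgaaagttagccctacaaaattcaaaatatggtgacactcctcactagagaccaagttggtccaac
The upstream regions of CYP71A12 and CYP71A13 share a run of 23 bases, AACCCTATAAATAGCATGCAGAA, that begins 77 bases before the annotated start of each. Every other pair among the 5 genes shared at most 11 bases. The annotated start of CYP71A12 and of CYP71A13 is the start codon, and their deposited gene length equals the coding length of 1494 bases. CYP79B2, CYP79B3 and PAD3 are annotated as longer than their coding sequences, so the windows of the 5 genes are not placed alike. Windows of 300 bases (250 before the start and 50 after) were searched on both strands for the W-box motifs TTGACC and TTGACT, which WRKY factors bind, and for the G-box CACGTG. None of the 5 windows held any of them, against 32.3% of 27561 promoters with a W-box and 7.65% with a G-box, which says only that these letters are absent from these windows.

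Expressed per kilobase of gene length, the CYP79B genes were the most abundant of the 5. In WT, CYP79B2 was at 40.8 ± 8.43 and CYP79B3 at 29.9 ± 7.25 CPM per kb (SD, n = 2), PAD3 was at 5.72 ± 1.34, CYP71A12 at 2.36 ± 0.216, and CYP71A13 at 0.0303 ± 0.0428. In the triple-labelled libraries the order changed in 1 place: CYP79B2 was at 103 ± 1.07 CPM per kb, PAD3 at 52.4 ± 0.760, CYP79B3 at 37.1 ± 1.51, CYP71A12 at 8.68 ± 0.746 and CYP71A13 at 3.46 ± 0.944. PAD3 thus stood above CYP79B3 in both of these libraries and below it in WT.

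**Figure D1:**
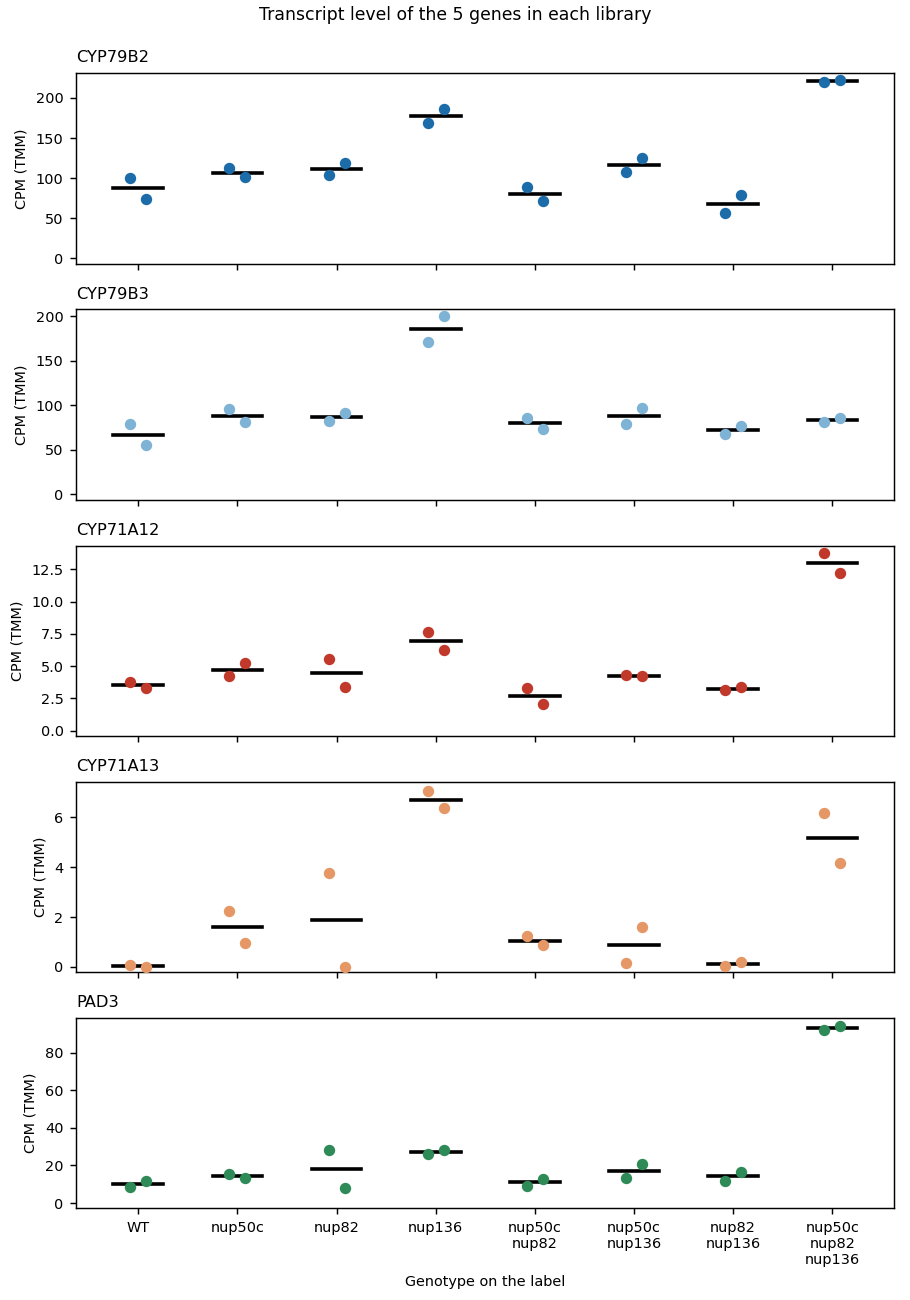
Transcript level of the 5 genes in each library in CPM scaled by TMM, with 1 panel per gene on its own linear axis from 0; points are the 2 libraries of a genotype and bars their mean. CYP79B2, CYP71A12 and PAD3 were highest in the libraries labelled nup50c nup82 nup136, and CYP79B3 and CYP71A13 in nup136.

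CYP79B2, the first of the aldoxime-forming pair, was at 99.9 and 74.4 CPM in the WT libraries, at 113 and 101 CPM in nup50c, at 103 and 118 CPM in nup82, and at 169 and 186 CPM in nup136. In the double mutants it was at 89.5 and 71.5 CPM (labelled nup50c nup82), at 107 and 125 CPM (nup50c nup136) and at 56.5 and 78.8 CPM (labelled nup82 nup136), and in the triple-labelled libraries at 219 and 223 CPM. Both nup136 libraries and both triple-labelled libraries lay above all other 12 libraries. The order of genotype means from low to high was nup82 nup136, nup50c nup82, WT, nup50c, nup82, nup50c nup136, nup136 and the triple-labelled libraries. Neighbours overlapped in their libraries up to WT, and again from nup50c to nup50c nup136.

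CYP79B3, its paralog, was at 78.6 and 55.6 CPM in WT, at 95.4 and 80.8 CPM in nup50c, at 82.8 and 90.9 CPM in nup82, and at 171 and 200 CPM in nup136. It was at 85.8 and 73.7 CPM in the libraries labelled nup50c nup82, at 79.1 and 96.4 CPM in nup50c nup136, at 67.7 and 76.5 CPM in those labelled nup82 nup136, and at 80.9 and 85.6 CPM in the triple-labelled libraries. Only the nup136 libraries stood apart: each of the other 7 genotypes overlapped with its neighbour in the order of means.

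CYP71A12 was at 3.75 and 3.30 CPM in WT, at 4.24 and 5.24 CPM in nup50c, at 5.57 and 3.40 CPM in nup82, and at 7.62 and 6.25 CPM in nup136. The double mutants were at 3.34 and 2.05 CPM (labelled nup50c nup82), 4.29 and 4.20 CPM (nup50c nup136) and 3.13 and 3.39 CPM (labelled nup82 nup136), and the triple-labelled libraries at 13.8 and 12.2 CPM. The triple-labelled libraries lay above every other library, nup136 came next without overlap, and the remaining 6 genotypes lay between 2.05 and 5.57 CPM.

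CYP71A13 had 4 and 0 counts in the WT libraries, a level at or near the limit of this depth. It had 101 and 41 counts in nup50c, 157 and 0 in nup82, 307 and 241 in nup136, 46 and 36 in the libraries labelled nup50c nup82, 6 and 75 in nup50c nup136, and 2 and 8 in those labelled nup82 nup136. The triple-labelled libraries had 257 and 182 counts. These are 6.71 ± 0.506 CPM in nup136 and 5.17 ± 1.41 CPM in the triple-labelled libraries, and 2.25 and 0.976 CPM in nup50c. The 2 libraries of nup82 and of nup50c nup136 disagreed most: 3.77 and 0 CPM, and 0.139 and 1.62 CPM. The biological coefficient of variation of CYP71A13 was 1.199, against a median of 0.0947 over all tested genes, and was 0.344 for PAD3, 0.153 for CYP71A12, 0.125 for CYP79B2 and 0.110 for CYP79B3.

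PAD3, the enzyme that closes the thiazole ring of camalexin, was at 8.48 and 11.9 CPM in WT, at 15.3 and 13.3 CPM in nup50c, at 28.1 and 8.09 CPM in nup82, and at 26.2 and 28.1 CPM in nup136. It was at 9.23 and 13.0 CPM in the libraries labelled nup50c nup82, at 13.4 and 20.9 CPM in nup50c nup136, at 11.7 and 16.7 CPM in those labelled nup82 nup136, and at 92.2 and 94.1 CPM in the triple-labelled libraries. The triple-labelled libraries lay above all other libraries, whereas each of the other 7 genotypes overlapped with its neighbour in the order of means. The nup82 libraries held both the lowest value of the 16 and one of the highest outside the triple-labelled libraries.

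In nup136, both aldoxime-forming enzymes and CYP71A12 rose against WT. CYP79B3 rose 2.77-fold (log2 fold change 1.47 ± 0.16 SE, adjusted p = 6.53e-05), CYP79B2 rose 2.03-fold (1.03 ± 0.18, adjusted p = 0.00377) and CYP71A12 rose 1.97-fold (0.97 ± 0.24, adjusted p = 0.00585), all by edgeR's quasi-likelihood test with Benjamini-Hochberg adjustment over all tested genes and a threshold of 0.05, with n = 2 each. PAD3 was 2.68-fold WT (1.42 ± 0.51, adjusted p = 0.113) and did not pass. CYP71A13 did not pass either (adjusted p = 0.0579), with 548 counts against 4, a ratio of 138 with an exact 95% interval of 53.5 to 507 that covers counting error only. The 3 calls of 5 stand beside 14.4% of all tested genes called in this comparison, and 6.56% called higher. The call of CYP71A12 was lost without WT replicate 2 (adjusted p = 0.0692) and without nup136 replicate 1 (adjusted p = 0.0588). With DESeq2 all 5 genes passed, and the share of all tested genes that it called is not given here.

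In the libraries labelled nup50c nup82 nup136, PAD3 showed the largest rise among the 4 genes with a measurable WT level. It was at 93.1 ± 1.35 CPM against 10.2 ± 2.39 CPM, a 9.19-fold rise (log2 fold change 3.20 ± 0.53, adjusted p = 0.00106). CYP71A12 rose 3.67-fold (1.88 ± 0.24, adjusted p = 3.87e-07) and CYP79B2 2.53-fold (1.34 ± 0.18, adjusted p = 0.000128). CYP79B3 was 1.24-fold WT and did not pass (0.31 ± 0.16, 95% interval -0.04 to 0.66, adjusted p = 0.13), an interval that excludes the 2.77-fold rise measured in nup136. CYP71A13 passed (adjusted p = 0.0278) with a counting ratio of 105 (40.9 to 389), but no fit with 1 of the 4 libraries removed kept its call (adjusted p 0.0546 to 0.133). The 4 calls of 5 stand beside 47.6% of all tested genes called in this comparison, and 23.3% called higher, so a call was far more common here than in nup136.

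None of the 5 genes passed in the other 5 mutants. DESeq2 called 0 in each. The counts of genes at an unadjusted p under 0.05 (edgeR) were 1 in nup50c, 2 in nup82, 0 in the libraries labelled nup50c nup82, 2 in nup50c nup136 and 0 in those labelled nup82 nup136. No share of all tested genes at that unadjusted threshold is given, so these counts cannot be set against the shares that follow. At an adjusted p under 0.05, the shares of all tested genes called were 1.73% in nup50c, 1.39% in nup82, 0.905% under the label nup50c nup82, 24.7% under nup50c nup136 and 19.3% under nup82 nup136. All 5 log2 fold changes were above 0 in nup50c, in nup82 and in nup50c nup136, and 3 of 5 were in the other 2. The median over all tested genes was from -0.0011 to 0.0080 in these comparisons, which share the WT libraries. With 1 library left out, the log2 fold change in nup82 went as low as -0.053 for CYP71A12, -4.12 for CYP71A13 and -0.32 for PAD3. In nup50c, CYP79B3 was 1.31-fold WT (0.39 ± 0.16, adjusted p = 0.38) and PAD3 was 1.42-fold WT (0.50 ± 0.52, adjusted p = 0.836). In nup50c nup136, CYP79B2 was 1.33-fold WT (0.42 ± 0.18, adjusted p = 0.127) and CYP79B3 was 1.31-fold WT (0.39 ± 0.16, adjusted p = 0.099). Without the filter on low counts 4 of 5 genes passed in nup50c, nup82 and nup50c nup136, beside 3.21%, 3.46% and 22.6% of 26672 genes called. That fit called CYP71A13 in nup82 although its libraries there had 157 and 0 counts (adjusted p = 3.87e-18, edgeR).

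**Figure D2:**
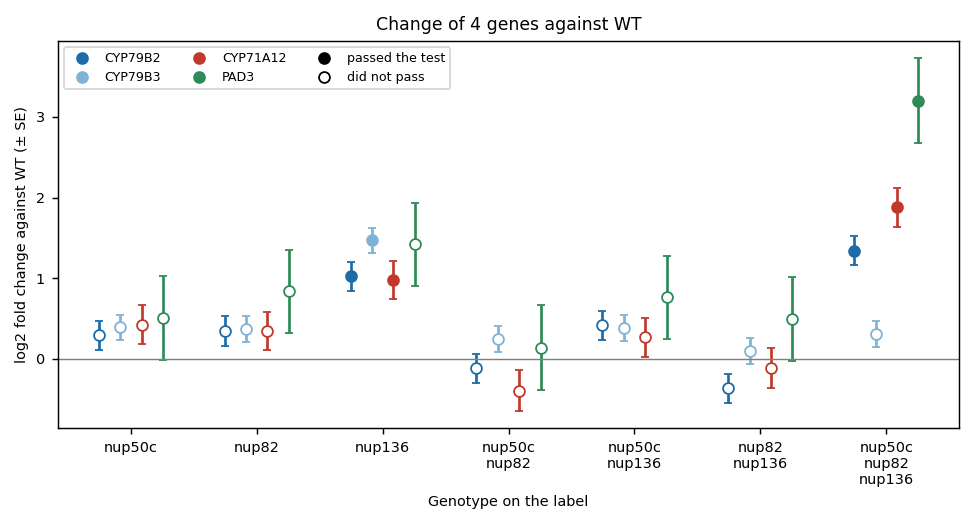
Log2 fold change against WT with its SE for CYP79B2, CYP79B3, CYP71A12 and PAD3 in each mutant; filled points passed the test at an adjusted p under 0.05 and open points did not. CYP71A13 is left out because WT had 4 and 0 counts. Filled points occur in nup136 (3) and in the libraries labelled nup50c nup82 nup136 (3).

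When the counts of CYP71A12 and CYP71A13 were added into 1 value, it passed in nup136 (log2 fold change 1.93 ± 0.36, adjusted p = 0.00358, edgeR) and in the triple-labelled libraries (2.34 ± 0.36, adjusted p = 0.000183), and in none of the other 5 mutants. In nup136 the sum rose 3.81-fold and in the triple-labelled libraries 5.07-fold.

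Adding the last mutation to a double mutant went with higher CYP79B2, CYP71A12 and PAD3, whichever double was the reference. Against the libraries labelled nup50c nup82, the triple-labelled libraries had PAD3 8.35-fold (log2 fold change 3.06 ± 0.52, adjusted p = 0.00135), CYP71A12 4.82-fold (2.27 ± 0.24, adjusted p = 2.93e-08) and CYP79B2 2.74-fold higher (1.46 ± 0.18, adjusted p = 7.51e-05). Against nup50c nup136 the same 3 genes were 5.41-fold, 3.06-fold and 1.90-fold higher, and against the libraries labelled nup82 nup136 they were 6.54-fold, 3.98-fold and 3.27-fold higher. The genes called higher made up 22.3%, 10.1% and 14.9% of all tested genes in these 3 comparisons, which share the triple-labelled libraries. The call of PAD3 against nup50c nup136 was lost without nup50c nup136 replicate 1 (adjusted p = 0.0722). CYP79B3 differed from none of the doubles at the threshold: its log2 differences were 0.06 (95% interval -0.28 to 0.41), -0.08 (-0.42 to 0.27) and 0.21 (-0.14 to 0.55).

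Adding a single further mutation to nup136 went with lower levels. In the libraries labelled nup82 nup136, CYP79B2 was 2.62-fold (log2 fold change -1.39 ± 0.18, adjusted p = 0.000636), CYP79B3 2.58-fold (-1.37 ± 0.16, adjusted p = 0.000114) and CYP71A12 2.13-fold lower than in nup136 (-1.09 ± 0.24, adjusted p = 0.00262), while 7.15% of all tested genes were called lower. In nup50c nup136, CYP79B3 was 2.12-fold lower than in nup136 (-1.08 ± 0.16, adjusted p = 9e-04), the only one of the 5 to pass, with 4.52% of all tested genes called lower. CYP79B2 there had a log2 difference of -0.61 ± 0.18 (adjusted p = 0.066) and CYP71A12 one of -0.71 ± 0.23 (adjusted p = 0.0579). PAD3 passed in neither comparison, at -0.66 ± 0.49 and -0.93 ± 0.50.

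In the double mutants some of the 5 genes lay below the sum of the single-mutant changes on the log2 scale, whereas PAD3 passed this test in none of them (adjusted p = 0.468, 0.507 and 0.194 for the nup50c and nup82, nup50c and nup136, and nup82 and nup136 terms, edgeR). For nup82 with nup136, taken by the label, the observed log2 fold change against WT was -0.37 for CYP79B2, 0.10 for CYP79B3 and -0.11 for CYP71A12, where the singles sum to 1.37, 1.84 and 1.32. The differences passed the test for CYP79B2 (-1.74 ± 0.26, adjusted p = 0.00202), CYP79B3 (-1.74 ± 0.22, adjusted p = 0.000429) and CYP71A12 (-1.43 ± 0.34, adjusted p = 0.0072), and for CYP71A13 on very low counts (adjusted p = 0.0478). Over all tested genes 5.33% lay below the sum at the threshold. For nup50c with nup136, CYP79B3 (-1.47 ± 0.22, adjusted p = 0.00187) and CYP71A12 (-1.13 ± 0.34, adjusted p = 0.0472) lay below the sum, beside 2.72% of all tested genes. For nup50c with nup82, also taken by the label, only CYP71A12 passed (-1.16 ± 0.34, adjusted p = 0.05 after rounding), beside 2.48% of all tested genes.

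In the triple-labelled libraries the observed log2 fold changes of CYP71A12 (1.88) and PAD3 (3.20) were close to the sums of the 3 single-mutant changes (1.74 and 2.76), that of CYP79B2 (1.34) was under its sum (1.67), and that of CYP79B3 (0.31) was far under its sum (2.23). The three-way term, which sets the triple-labelled libraries against what WT, the singles and the doubles add up to, was above 0 and passed for all 5 genes: 3.07 ± 0.36 for CYP79B2, 1.81 ± 0.32 for CYP79B3, 3.86 ± 0.48 for CYP71A12, 4.57 ± 1.01 for PAD3 and, on very low counts, CYP71A13. Over all tested genes 5.09% passed with a term above 0. By construction the term is also raised by doubles that lie below the sum of their singles. The calls of CYP79B2, CYP79B3 and CYP71A12 held in 16 of 16 fits with 1 library left out, that of PAD3 in 6 and that of CYP71A13 in 2.

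**Figure D3:**
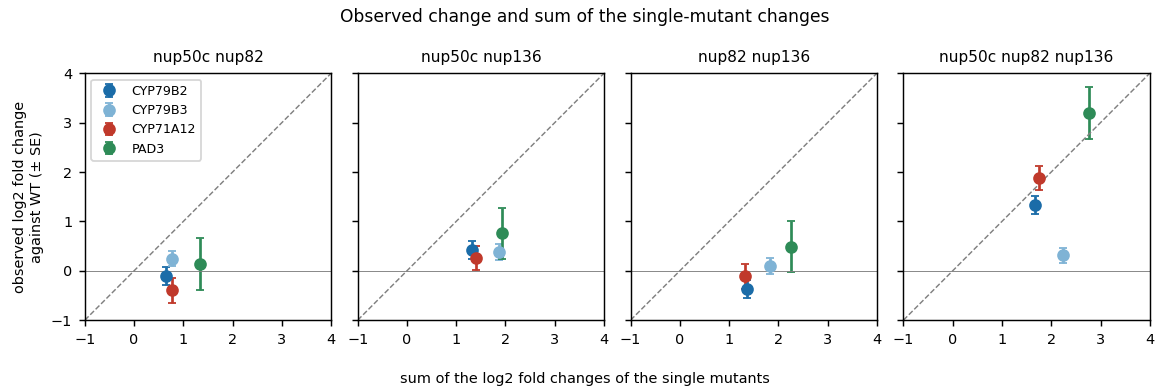
Observed log2 fold change against WT with its SE (vertical axis) and the sum of the single-mutant log2 fold changes (horizontal axis) for 4 genes, with 1 panel per multiple mutant; the dashed line marks equal values. All points lie under the line in the 3 doubles, and in the libraries labelled nup50c nup82 nup136 CYP79B3 lies furthest under it.

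The 2 CYP79B genes parted furthest in the triple-labelled libraries. Per kilobase, the ratio of CYP79B2 to CYP79B3 was 2.84 and 2.73 in the libraries labelled nup50c nup82 nup136, and 0.876 to 1.42 in the other 14 libraries. WT stood at 1.33 and 1.40, and nup136, in which both genes rose, at 1.03 and 0.973. The libraries labelled nup50c nup82 were at 1.09 and 1.02, and those labelled nup82 nup136 at 0.876 and 1.08. All libraries of nup50c, nup82 and nup50c nup136 lay from 1.24 to 1.42, so the ratio also differed among the genotypes other than the triple-labelled one. Within genotypes the pair moved together: whichever library was higher for CYP79B2 was also higher for CYP79B3 in 8 of 8 genotypes. PAD3 and CYP71A13 agreed in this way in 4 of 8 genotypes and PAD3 and CYP71A12 in 2 of 8. The ratio was singled out after its values were seen and is given without a test.

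**Figure D4:**
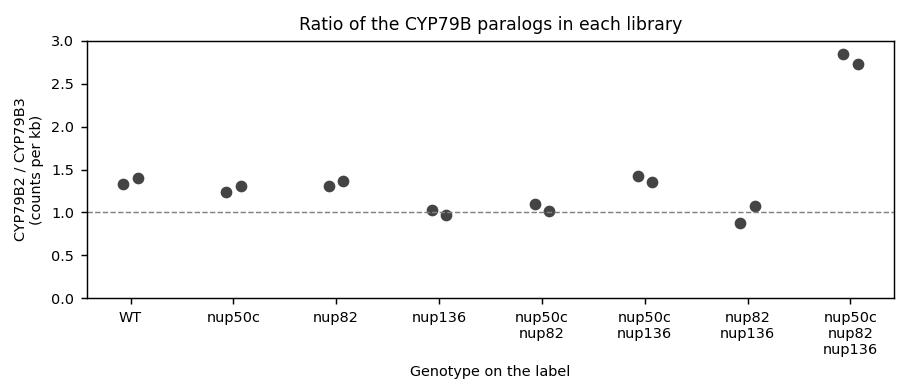
Ratio of CYP79B2 to CYP79B3 in counts per kilobase of gene length in each library, on a linear axis from 0 with a dashed line at equal levels. The triple-labelled libraries are at 2.84 and 2.73 and the other 14 libraries at 0.876 to 1.42.

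Across all 16 libraries the log2 CPM of PAD3 ran closest to that of CYP71A12 (Pearson r = 0.889) and least with that of CYP79B3 (r = 0.256), and CYP79B2 ran with CYP71A12 at r = 0.886 and with CYP79B3 at r = 0.609. The points share the libraries and the genotypes, so these values are descriptions. Among genes with a mean of at least 1 CPM, those most like CYP79B2 were CYP83B1 (r = 0.981), the next enzyme toward indole glucosinolates, SOT16 (r = 0.962), a sulfotransferase of the same route, and AT1G13480 (r = 0.940). Those most like CYP79B3 were FAMT (r = 0.943), CYT1 (r = 0.925), a mannose-1-phosphate guanylyltransferase, and AT1G52410 (r = 0.898), a TSK-associating protein. PSAT (r = 0.906), a phosphoserine aminotransferase, CEP1 (r = 0.906), a cysteine endopeptidase, and ANAC042 (r = 0.900), a NAC transcription factor, were most like CYP71A12. TAT3 (r = 0.890), AOX1D (r = 0.871) and AT1G26390 (r = 0.848) were most like CYP71A13, and GSTU4 (r = 0.935), ASB1 (r = 0.923) and BETA-VPE (r = 0.918) were most like PAD3. With DESeq2 size factors 10 of these 15 stayed among the 3 most alike, and the same number did with library totals as the only scaling.

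Upstream of the 5 genes, tryptophan synthesis rose in the triple-labelled libraries: 7 of its 8 listed genes rose, ASA2 at -0.17 did not pass, and the list had a median log2 fold change of 0.83 against a median near 0 over all tested genes, of which 23.3% were called higher in this comparison. TSA1 (AT3G54640), the alpha subunit of tryptophan synthase, went from 84.8 to 195 CPM (2.30-fold, adjusted p = 9.41e-12), IGPS, which makes indole-3-glycerol phosphate, from 64.0 to 126 CPM (log2 fold change 0.98 ± 0.09), PAT1 from 86.9 to 171 CPM (0.97 ± 0.09), and ASB1, a beta subunit of anthranilate synthase, from 29.0 to 56.1 CPM (0.95 ± 0.12). In nup136, where 14.4% of all tested genes were called, 4 rose and 1 fell, and none of the 4 rose by more than ASB1 (0.53 ± 0.13, adjusted p = 0.00519). In nup50c nup136, where 24.7% were called, 3 rose and 1 fell, the latter being ASA1, a catalytic subunit of anthranilate synthase (-0.59 ± 0.12, adjusted p = 0.00133).

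The list of other genes of the camalexin route held 9, which apart from CYP71A18 supply or join glutathione, process the conjugate or export the product. Of these 9, 6 rose in the triple-labelled libraries, beside 23.3% of all tested genes. One of the 6, CYP71A18, passed the filter on low counts only through these libraries, so its call is not counted as support. GSTF6, a glutathione S-transferase, was at 48.2 and 43.5 CPM in WT, at 102 and 136 CPM in nup136, at 234 and 332 CPM in nup50c nup136, and at 874 and 898 CPM in the triple-labelled libraries, a 19.3-fold rise over WT in the last (log2 fold change 4.27 ± 0.29, adjusted p = 2.9e-06). GSTF6 also rose in the doubles of nup136 with nup50c (2.62 ± 0.27) and with nup82 (1.50 ± 0.26), where PAD3 did not pass. GSTU4 rose in nup136 (1.44 ± 0.31) and in the triple-labelled libraries (2.24 ± 0.31). GGP1, a gamma-glutamyl peptidase, rose in nup136 (0.78 ± 0.10). GSH1, the first enzyme of glutathione synthesis, rose from 316 to 503 CPM in the triple-labelled libraries (0.67 ± 0.07). CYP71A18, a relative of CYP71A12 and CYP71A13, had 0 counts in WT, 4 in nup136 and 10 and 12 in the triple-labelled libraries, at least 3.49-fold higher against a floor of 3 counts per library.

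Genes that regulate camalexin did not move in 1 direction. WRKY33, the transcription factor best known for switching on PAD3 and CYP71A13, was at 80.9 and 103 CPM in WT, at 32.5 and 34.2 CPM in nup136 and at 55.5 and 52.9 CPM in the triple-labelled libraries. WRKY33 fell in every genotype with nup136: the log2 fold change was -1.47 ± 0.20 in nup136 (adjusted p = 0.000596), -1.20 ± 0.19 in nup50c nup136, -0.67 ± 0.19 where the label was nup82 nup136, and -0.76 ± 0.19 in the triple-labelled libraries (adjusted p = 0.00695). MPK3, a mitogen-activated protein kinase upstream of WRKY33, fell from 162 ± 16.4 CPM to 79.0 ± 2.48 in nup136 (-1.04 ± 0.09) and to 67.4 ± 0.310 in the triple-labelled libraries (-1.27 ± 0.09). MPK3 also fell in nup50c nup136 (-1.20 ± 0.09) and under the labels nup82 nup136 (-1.09 ± 0.09) and nup50c nup82 (-0.41 ± 0.09), where none of the 5 genes passed. ANAC042, a NAC factor that acts on camalexin genes, rose in nup136 (1.23 ± 0.34) and in the triple-labelled libraries (2.66 ± 0.33), where it went from 1.23 to 7.83 CPM. MYB122 (2.02 ± 0.56) and MYB51 (1.33 ± 0.11), factors of indole glucosinolate synthesis, also rose in the triple-labelled libraries. MYB34, a further such factor, went the other way there, from 55.4 ± 8.08 to 45.1 ± 2.36 CPM (-0.30 ± 0.12, adjusted p = 0.0483), and rose in nup136 (0.50 ± 0.12); it lies outside the rule for named genes and was added after its values were seen. In all, 3 of the 14 listed regulators rose and 3 fell in nup136, where 14.4% of all tested genes were called. In the triple-labelled libraries 7 rose and 4 fell, where 47.6% of all tested genes were called, 5229 of 22427 higher and 5445 lower.

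The indole glucosinolate branch takes the same aldoxime. In the triple-labelled libraries 9 of its 12 tested genes rose and 3 fell, where 5229 of all 22427 tested genes were called higher and 5445 lower. In nup136 6 rose and 2 fell, where 1471 of all tested genes were called higher and 1757 lower. CYP83B1, which draws on the aldoxime directly, went from 179 to 304 CPM in nup136 (log2 fold change 0.77 ± 0.09) and to 353 CPM in the triple-labelled libraries (0.98 ± 0.09). The genes that fell furthest in the triple-labelled libraries were CYP81F4 (-1.56 ± 0.17) and CYP81F3 (-1.26 ± 0.18), which modify the finished indole glucosinolate. CYP81F2, the member of that family tied to defence, fell in nup136 (-1.13 ± 0.22), and in its doubles with nup50c (-0.79 ± 0.22) and nup82 (-1.08 ± 0.22). In the last of these, 6 genes of the branch fell, where 2541 of all 22427 tested genes were called lower. In the triple-labelled libraries CYP81F2 instead rose, from 18.7 and 23.5 CPM in WT to 39.5 and 41.1 CPM (0.93 ± 0.21, adjusted p = 0.00256).

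The branches to cyanogenic and carboxylic indole compounds and the nitrilases held further large rises. In the triple-labelled libraries 6 of 9 rose and 1 fell. NIT2, a nitrilase that can act on indole-3-acetonitrile, went from 31.9 to 439 CPM (log2 fold change 3.78 ± 0.11, adjusted p = 1.96e-17), and NIT1 from 498 to 2279 CPM (2.19 ± 0.09). FOX1, an oxidase of the cyanogenic branch, went from 1.60 ± 1.13 to 12.0 ± 1.49 CPM (2.88 ± 0.67). CYP82C2, which hydroxylates its product, went from 0.136 ± 0.192 to 4.26 ± 0.427 CPM (4.88 ± 1.33, adjusted p = 0.00942, edgeR). The WT level of CYP82C2 was very low, so the size of its rise is uncertain. NIT1 and NIT2 also rose in nup136 (0.90 ± 0.08 and 0.62 ± 0.11) and in its doubles with nup50c (1.61 ± 0.08 and 2.20 ± 0.11) and nup82 (0.93 ± 0.08 and 0.77 ± 0.11). NIT4, a nitrilase of the same list, fell in these 3 genotypes (-0.99 ± 0.17, -1.05 ± 0.17 and -0.51 ± 0.16) and rose in the triple-labelled libraries (0.72 ± 0.16). The list held 2 rises and 2 falls in nup136, 3 and 3 in nup50c nup136, and 2 and 2 under the label nup82 nup136. Over all 5 pathway lists, 52 of 53 genes were tested. Of these, 50% were called in nup136 (18 higher, 8 lower), 51.9% in nup50c nup136 (14 and 13), 30.8% in nup82 nup136 (4 and 12) and 82.7% in the triple-labelled libraries (35, CYP71A18 among them, and 8), beside the 14.4%, 24.7%, 19.3% and 47.6% of all tested genes. In genotypes without nup136 the shares were 9.62% in nup82 (5 higher, 0 lower), 3.85% in nup50c (2 and 0) and 1.92% under the label nup50c nup82 (0 and 1). All tested genes stood at 1.39%, 1.73% and 0.905% there. The genes called in nup82 were GGP1, MKK9, MYB51, IGMT1 and NIT4.

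**Figure D5:**
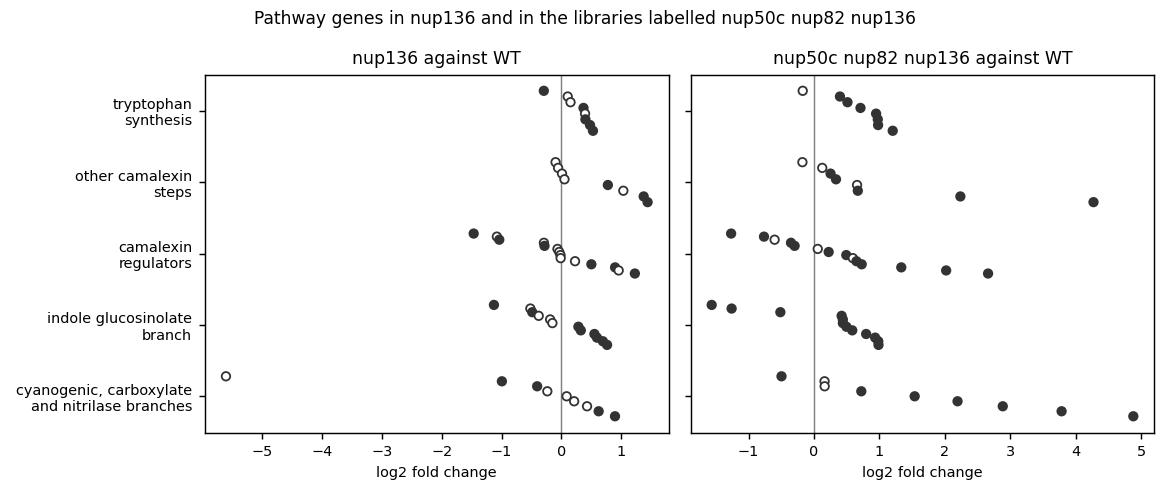
Log2 fold change against WT of the tested genes of the 5 pathway lists, without CYP71A18, with 1 row per list. The left panel shows nup136 and the right panel the libraries labelled nup50c nup82 nup136. Filled points passed the test and open points did not. CYP82C2, the open point furthest to the left in nup136, had 0 counts there. The 35 genes called higher in the libraries of the right panel include CYP71A18, which is not drawn, and 8 genes were called lower.

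Markers of organs and of defence also moved, in genotypes where some of the 5 genes rose and in others where none of them passed. Of 18 root markers, 1 rose and 7 fell in nup136 and 1 rose and 11 fell in the triple-labelled libraries, beside 14.4% and 47.6% of all tested genes called. Their summed levels were 3099 to 3167 CPM in WT, 2058 to 2136 CPM in nup136 and 2690 to 2744 CPM in the triple-labelled libraries. Their median log2 fold change was -0.31 in nup136 and -1.18 in the triple-labelled libraries, the opposite ranking to the sums. All 8 leaf markers fell in the triple-labelled libraries, with summed levels of 32381 and 33996 CPM in WT and 21446 and 21732 CPM in the triple-labelled libraries; in nup136 1 rose and 4 fell, with 27050 and 28873 CPM. In nup50c nup136 1 root marker rose and 11 fell and 6 leaf markers fell, and under the label nup82 nup136 1 root marker rose and 7 fell and 5 leaf markers fell, beside 24.7% and 19.3% of all tested genes called. All 18 root markers and all 8 leaf markers had counts in all libraries, which are labelled whole seedlings. Of 8 genes used as reporters of induced defence, 3 rose in nup136 (PR1, VSP2 and PR5), and in the triple-labelled libraries PR1 and FRK1 rose while PDF1.2, PR5 and VSP2 fell. PR1, a reporter of salicylic acid responses, went from 0.207 ± 0.218 CPM in WT to 20.4 ± 7.64 CPM in nup136 and 37.5 ± 1.12 CPM in the triple-labelled libraries. Its WT counts were very low, and its log2 fold changes had an SE of 1.72 and 1.69. FRK1, induced by bacterial patterns, rose in the triple-labelled libraries (log2 fold change 1.91 ± 0.42) and was also called in nup50c (1.61 ± 0.42) and nup82 (1.77 ± 0.42). The part of these markers in the results was not tested, and in whole-seedling RNA fewer cells of a type and less RNA per cell cannot be told apart.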

How the data were processed

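The submitters' processing notes name HISAT2 2.0.4, HTSeq 0.6.1p1 and TAIR10, and per the labels' protocols the libraries were strand-specific mRNA-seq. The deposited counts are raw whole numbers per gene made by the authors; how strand and multiply aligned reads were handled is not given in the sources used here. The gene length used for values per kilobase is the authors' deposited column; the deposited FPKM values were not used.

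From the counts, CPM were scaled by TMM, and all 16 libraries entered 1 edgeR 4.0.16 (R 4.3.3) quasi-likelihood fit with robust estimation, 1 coefficient per genotype and 8 residual degrees of freedom, after filterByExpr with its minimum count of 10. P-values of the 16 contrasts were adjusted by Benjamini-Hochberg over 22427 genes. SEs were taken from the log2 fold change and its F value. "Rose", "fell" and "called" mean an adjusted p under 0.05. The common biological coefficient of variation was 0.102. Intervals for counting ratios are exact at 95% and cover counting error only. The script was tested on simulated data. Likeness used log2 CPM with a prior count of 2.

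Sequences came from RefSeq TAIR10.1; 27443 of 27444 protein-coding loci had the same start and end in the count table. The genes and lists were chosen with earlier results of these data known. Named outside the 5 genes are the mutated genes, up to 4 called genes per list and comparison with the largest fold change (with their values in other mutants), and the 3 most alike per gene. Alternatives were DESeq2 1.42.0 size factors and Wald test, library totals, no filter, only the genotypes compared, a replicate block, summed CYP71A12 and CYP71A13, and each library left out.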

Additional observations from a re-analysis of the deposited data

Results flagged for a closer look

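For 12 gene and term combinations the change that goes with a label differed between labelled backgrounds by a test of the difference itself (edgeR, adjusted over all tested genes), and the values are log2 differences. Multiple mutants with nup82 are taken by their labels here, because NUP82 did not pass the test in them. They enter the three-way term, the nup82 and nup136 term and the nup50c and nup82 term. The three-way term was 3.07 for CYP79B2, 1.81 for CYP79B3, 3.86 for CYP71A12, 14.18 for CYP71A13 and 4.57 for PAD3. The nup82 and nup136 term was -1.74 for CYP79B2, -1.74 for CYP79B3, -1.43 for CYP71A12 and -10.99 for CYP71A13. The nup50c and nup136 term was -1.47 for CYP79B3 and -1.13 for CYP71A12, and the nup50c and nup82 term was -1.16 for CYP71A12. Both CYP71A13 values rest on 4 and 0 counts in WT and on nup82 libraries with 157 and 0 counts. With 1 library left out, CYP71A12 passed in 3 of 8 fits for the nup50c and nup82 term, in 1 of 8 for the nup50c and nup136 term and in 7 of 8 for the nup82 and nup136 term (lost without nup82 replicate 1), and CYP71A13 in 1 of 8 for the last.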

How the results depend on the processing

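With DESeq2 size factors or library totals as the scaling, the number of the 5 genes called stayed as reported in all 16 comparisons, and the order of genotype means was kept in 140 and 138 of 140 pairs. Over all tested genes, library totals turned the split in nup136 from 1471 higher and 1757 lower to 1833 and 1399, and that in nup82 nup136 from 1784 and 2541 to 2592 and 2113. For the causes of the changes below, the cause was not tested.

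Without the filter on low counts, members called were 4 in nup50c, 4 in nup82, 5 in nup136, 1 in nup50c nup82, and 4 and 2 in the doubles of nup136 with nup50c and nup82 against WT, 5 in each of nup50c nup136 and nup82 nup136 against nup136, and 5 in each of the nup50c and nup82 and the nup50c and nup136 terms. Its pathway counts were 12 in nup50c, 17 in nup82, 5 in nup50c nup82, and 22, 23 and 28 in the nup50c and nup82, nup50c and nup136, and nup82 and nup136 terms, against 2, 5, 1, 9, 13 and 15, and the summed CYP71A12 and CYP71A13 passed in 5 mutants rather than 2. Of 26672 genes, 3.21% were then called in nup50c, 3.46% in nup82, 14.3% in nup136 and 2.73% in nup50c nup82. In nup50c nup136 and nup82 nup136 the shares were 22.6% and 18.5% against WT, and 9.72% and 12.8% against nup136. For the nup50c and nup82, nup50c and nup136, and nup82 and nup136 terms they were 6.53%, 6.63% and 10.3%. No shares of all genes are given for the next 2 settings, so their counts have nothing to be set against. DESeq2's Wald test called 5 genes in nup136, 3 in nup50c nup136 against nup136 and 4 in the nup50c and nup136 term, and 9 pathway genes in nup82. Fitting only the genotypes compared gave 1 member in nup50c, 5 in nup136, 1 each in nup50c nup82 and nup50c nup136, 3 and 5 in nup50c nup136 and nup82 nup136 against nup136, and 0 and 4 in the nup50c and nup82 and nup50c and nup136 terms, with 4, 9, 3 and 14 pathway genes in nup50c, nup82, nup50c nup82 and the nup50c and nup82 term. Summing CYP71A12 and CYP71A13 gave 2 calls in nup50c nup136 against nup136 and 0 in the nup50c and nup82 term, and the log2 fold change of the sum in nup50c nup82 was 0.059 where that of CYP71A12 was -0.39.

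The replicate numbers did not pair the libraries: over 28 pairs of genotypes the correlations of same-numbered deviations ran from -0.06 to 0.05, and 0 exceeded 0.1. The replicate block called 2 members in nup50c nup136 against nup136 (CYP71A12 was added), 3 in the nup82 and nup136 term and 4 in the three-way term (CYP71A13 was lost in both), and the same number in every other comparison.

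With 1 library left out, the remaining library of a genotype was assumed to vary like the others. Members called ranged from 0 to 1 in nup50c, nup82 and nup82 nup136, from 0 to 2 in nup50c nup136, from 0 to 2, 1 to 2 and 2 to 5 in the nup50c and nup82, nup50c and nup136, and nup82 and nup136 terms, and from 3 to 5 in the three-way term. CYP79B3 was gained without WT replicate 1 in nup50c, nup82, nup50c nup136 and the triple-labelled libraries, CYP79B2 likewise in nup50c nup136, and CYP79B2 as a fall in nup82 nup136 without its replicate 2. Pathway counts ranged from 0 to 4 in nup50c, 1 to 5 in nup82, 14 to 24 in nup136, 0 to 2 in nup50c nup82, 9 to 13 in nup82 nup136, 9 to 15 in nup50c nup136 against nup136, and 8 to 13 in the nup50c and nup136 term. Values that changed sign, none of them called, ranged for CYP79B2 from -0.31 (without WT replicate 2) to 0.11 (without WT replicate 1) and for PAD3 from -0.13 to 0.40 in nup50c nup82, for CYP79B3 from -0.12 to 0.37 in nup82 nup136 and from -0.043 to 0.18 and -0.20 to 0.079 in the triple-labelled libraries against nup50c nup82 and nup50c nup136, for CYP71A12 from -0.053 to 0.66 and for PAD3 from -0.32 to 1.47 in nup82 (lowest without nup82 replicate 1), and for CYP71A13 from -4.12 to 9.31 in nup82, -0.024 to 5.34 in nup82 nup136 and -9.95 to 3.47 in the nup50c and nup82 term. CYP71A13 in WT was at the limit of the depth.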
